A study of Mus musculus with 2 samples.

Results

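Interferon-stimulated genes are described here through 9 members that carry these symbols in the feature list: Bst2, Isg15, Ifit1, Ifit3, Irf7, Irf1, Ifitm2, Ifitm3 and Ifi27, out of 33696 features measured. They were taken by symbol, from a list drawn up with earlier results of these data known. The cells are KPCY 6419c5, a mouse pancreatic ductal adenocarcinoma line, carrying the BASELINE lineage-tracing system, in which the base editor Cas12a-ABE writes changes into DNA as the cells grow. Clones 76 and 84, each grown from 1 sorted cell, were mixed at equal numbers after 19 days of editing and loaded as 1 single-cell 3′ library. All cells therefore share the line, the editor and the editing time, and no unedited or interferon-treated group stands beside them. The sample that mixes clones 1, 32, 33, 52 and 76 is not used here.

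No file ties a cell to a clone, so cells were grouped by their own transcripts. Kept cells had 2000 UMIs or more (unique molecular identifiers, each standing for 1 captured RNA molecule), 1000 genes or more and no more than 15% of UMIs from mitochondrial genes. A cells had at least 2 UMIs of Pde10a, Plcb1, Galnt18, Arhgap15 and Ceacam1 together and at least 3 times as many as of the B genes. B cells met the same rule for S100a7a, Rgs20, Hs6st2, Ccbe1, Ctse and Mal. The names are only labels for the expression groups: they say nothing of lymphocytes, nor of which clone is which. There were 7816 A cells, 8936 B cells and 4609 kept cells in neither group. With 1 library there is no replicate and no test. Every interval below is a 95% interval that covers counting error only.

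Interferons are secreted alarm signals. Type I interferons act through the receptor subunits IFNAR1 and IFNAR2 and the kinases JAK1 and TYK2 on transcription factor complexes that bind the interferon-stimulated response element (ISRE). Interferon gamma acts through its own receptor on the gamma-activated site (GAS) and induces IRF1. Tumour cells often keep a low level of these genes without added interferon, and cytosolic DNA or RNA can raise it through sensors such as cGAS and the helicase encoded by Ifih1.

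The promoters of the members are shown first, with the places where the letters of the classical element were found. A search for exact letters in short windows cannot show that a gene lacks the element. RefSeq windows of 250 bases before to 50 bases after the start site (build GRCm38.p6) were held for 8 of the 9 members, all but Ifi27. They were searched on both strands for the ISRE letters GAAANNGAAA, which read TTTCNNTTTC on the other strand, and for the GAS letters TTCNNNGAA. The ISRE letters were found for 6 of those 8 members, against 3.44% of 32851 promoters of the same length, or 3.99% of 27025 genes. Of 35 other interferon-stimulated genes with a window, 11 had them. The lines below run 5′ to 3′ on the gene's strand. Capitals mark the ISRE letters, and adjoining matches overlap in Bst2 and Isg15.
Bst2: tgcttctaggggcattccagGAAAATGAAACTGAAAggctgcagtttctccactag
Isg15: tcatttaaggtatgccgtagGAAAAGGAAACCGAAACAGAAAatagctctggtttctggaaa
Ifit1: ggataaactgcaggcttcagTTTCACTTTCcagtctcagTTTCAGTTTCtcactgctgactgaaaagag
Ifit3: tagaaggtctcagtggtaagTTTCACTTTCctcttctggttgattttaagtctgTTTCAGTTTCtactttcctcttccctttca
Ifitm2: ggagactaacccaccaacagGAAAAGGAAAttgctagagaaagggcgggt
Ifitm3: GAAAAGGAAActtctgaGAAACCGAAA

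The Bst2 window (chr8:71537567-71537622, minus strand) holds 2 matches that begin 130 and 124 bases before the start site. Isg15 (chr4:156200855-156200916, minus strand) holds 3, the nearest beginning 66 bases before it. The matches of Ifit1 (chr19:34640765-34640833, plus strand) begin 104 and 85 bases before the start, and those of Ifit3 (chr19:34583353-34583436, plus strand) 156 and 122 bases before it. On chromosome 7 the paralogs differ in place: the match of Ifitm2 (chr7:140955978-140956027, minus strand) begins 46 bases before the start, whereas the 2 matches of Ifitm3 (chr7:141010716-141010742, minus strand) begin 2 and 19 bases after it. The letters were not found in the windows of Irf7 or Irf1. The GAS letters were found for Bst2, Ifitm3 and Irf1, against 8.30% of all promoters, or 9.55% of genes. In Bst2 and Ifitm3 they overlap an ISRE match. In Irf1, the member induced by interferon gamma in textbooks, they begin 90 bases before the start (chr11:53769904-53769952, plus strand), with the GAS letters in capitals.
Irf1: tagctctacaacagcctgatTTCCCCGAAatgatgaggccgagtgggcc

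A cells held 40272805 UMIs, with a median of 4699.5 per cell and 3.19% mitochondrial, and B cells 52771426, with a median of 5440.5 and 1.89%. The labelled type is an epithelial tumour, and all 6 epithelial markers were detected. They summed to 2737 CPM (UMIs of a gene or list, scaled to a group total of 1e6) in A and 7578 CPM in B cells. Of the 6, 4 were at least 2-fold higher in B and 1 in A cells, against 7.26% and 10.3% of all features at 10 CPM. A Krt7 UMI was seen in 15.2% of A and 99.1% of B cells. Detection of the markers alone does not settle the type of A cells. Immune markers summed to 3.67 CPM in A and 1.21 CPM in B cells, with 3 of 12 at 0. Fibroblast markers summed to 2.19 and 1.02 CPM with 3 of 8 at 0, endothelial markers to 9.49 and 1.19 CPM with 2 of 6 at 0, and endocrine markers to 3 and 4 UMIs with 3 of 6 at 0. Their part in the results below was not tested. Because A and B cells differ in depth, shares of cells and correlations use cells thinned to 3000 UMIs, which leaves out 410 A and 109 B cells.

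The members were higher in A cells, or did not differ beyond counting error, and none was higher in B cells. The largest pool of transcripts came from Ifitm2, and, among members seen in both groups, the steepest ratios from Isg15 and Ifitm3. Together the 9 genes gave 726 CPM (718 to 734) in A and 230 CPM (226 to 234) in B cells. Levels are CPM of summed UMIs from a 3′ library, where a transcript counts once whatever its length. Of the 4 members at or above 10 CPM in either group, 2 were at least 2-fold higher in A and 0 in B cells. Over all features at that level the shares were 10.3% and 7.26%. The 2 called, Ifitm2 and Ifitm3, are neighbours on chromosome 7. Of its other genes tested, 21.0% were at least 2-fold higher in A cells. Ifitm3 reached 10 CPM in A cells only. At 1 CPM or more, 4 of 7 members were past 2-fold higher in A and 0 in B, against 14.8% and 10.2% of all features. Among those called, Isg15 and Irf7 reached 1 CPM in A cells only. The median log2 ratio of A over B was 1.37 for the 4 members and 0.17 for all 8800 features at 10 CPM. These are counts of few genes from 1 library.

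**Figure D1:**
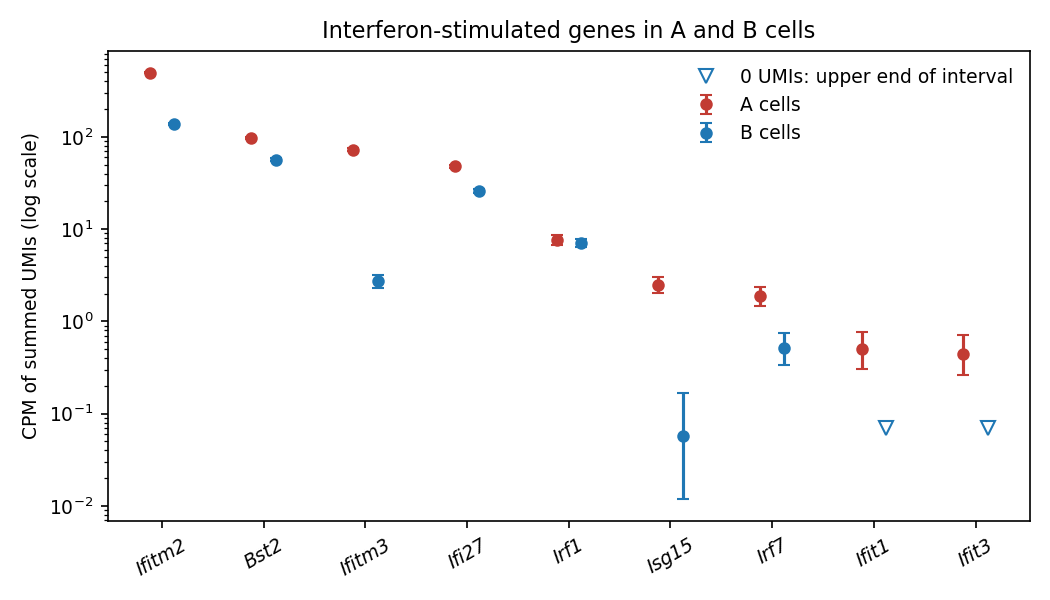
Level of each member in A cells (red) and B cells (blue), in CPM of summed UMIs on a log axis; bars are exact 95% Poisson intervals, and open triangles mark the upper end of the interval where no UMI was seen. Irf1 is the member whose intervals overlap (7.62 and 7.03 CPM), while Ifitm3 falls from 72.0 CPM in A to 2.71 CPM in B cells.

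Ifitm2 (ENSMUSG00000060591) and Ifitm3 (ENSMUSG00000025492) encode membrane proteins that block the fusion of enveloped viruses in endosomes. Ifitm2 had 19968 UMIs in A cells, or 496 CPM (489 to 503), and 7228 UMIs in B cells, or 137 CPM (134 to 140). That is 3.62-fold higher in A cells (3.52 to 3.72). Ifitm3 had 2901 UMIs and 72.0 CPM (69.4 to 74.7) in A cells, and 143 UMIs and 2.71 CPM (2.28 to 3.19) in B cells. The ratio was 26.6-fold (22.5 to 31.7), with a log2 value of 4.73 that became 5.41 under a purer rule for the groups. The genes are close paralogs, so reads from a shared stretch could be assigned to either, and this was not tested.

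Ifitm2 was common in both groups, and Ifitm3 in neither. At 3000 UMIs, 70.8% of A cells (69.8 to 71.9) and 32.0% of B cells (31.0 to 33.0) had an Ifitm2 UMI; unthinned the shares were 84.2% and 50.6%. For Ifitm3 the shares were 14.9% (14.1 to 15.7) and 0.544% (0.401 to 0.720), and unthinned 21.5% and 1.28%. Some other genes high in A cells were also seen at a low level in B cells. Twist1, a mesenchymal transcription factor chosen for this comparison after its values were seen, had 26.8 CPM in A and 0.853 CPM in B cells. A Twist1 UMI was seen in 0.193% of thinned B cells, and one of Acta2, a smooth-muscle actin, in 0.872%. Free RNA and mixed droplets were not told apart from expression at that level. Within A cells Ifitm2 ranged from 0 UMIs in 2160 thinned cells to 4 or more in 706, with a highest value of 18. Its variance was 1.80 times its mean there and 1.06 times in B cells. Ifitm3 was the more uneven in A cells, at 1.96 times the mean: 6305 cells had none, 773 had 1, and 42 had 4 or more.

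**Figure D2:**
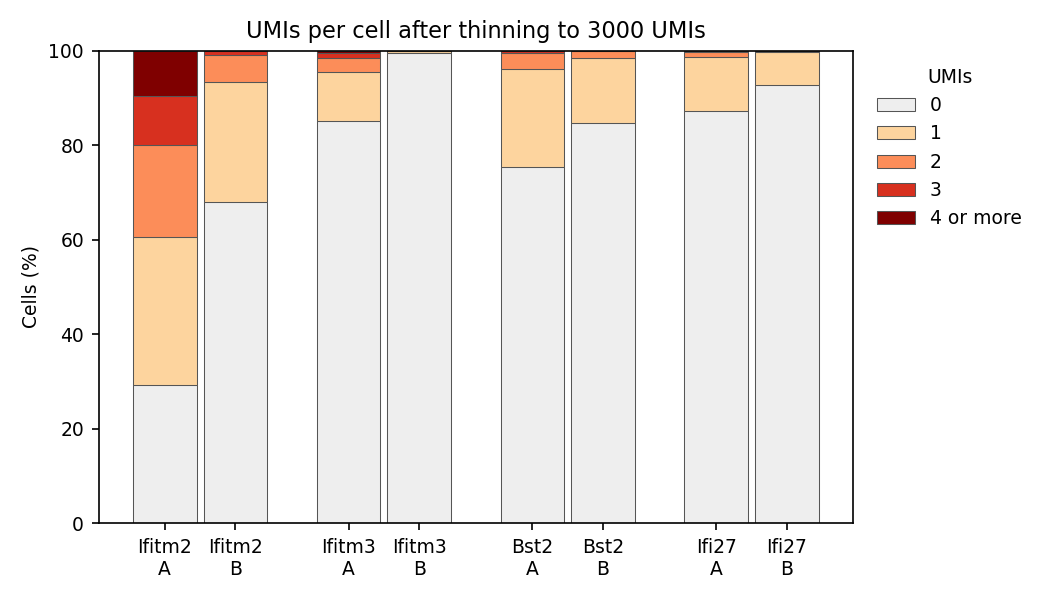
Share of thinned cells (%) with 0, 1, 2, 3 or 4 or more UMIs of the 4 most abundant members, in A and B cells at 3000 UMIs a cell. Ifitm2 is seen in 70.8% of A and 32.0% of B cells, whereas Ifitm3 is close to absent from B cells at 0.544%.

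Bst2 (ENSMUSG00000046718), the tetherin that holds budding virus particles on the cell surface, was second in level. It had 3919 UMIs and 97.3 CPM (94.3 to 100.4) in A cells and 2981 UMIs and 56.5 CPM (54.5 to 58.6) in B cells, a ratio of 1.72 (1.64 to 1.81). A Bst2 UMI was seen in 24.7% of thinned A and 15.3% of thinned B cells. Ifi27 (ENSMUSG00000064215), a small mitochondrial and nuclear-envelope protein induced by type I interferon, had 47.9 CPM (45.8 to 50.1) in A and 26.0 CPM (24.7 to 27.4) in B cells. Its ratio was 1.84 (1.72 to 1.97), and its shares were 12.8% and 7.26%. In A cells the variance was 1.05 times the mean for Bst2 and 1.14 times for Ifi27, against 1.96 times for Ifitm3. The mean thinned UMIs per A cell were 0.291 for Bst2, 0.145 for Ifi27 and 0.222 for Ifitm3. Centring the ratios on the median of well-expressed features, a shift of 0.11 in log2, left Bst2 at 0.68 and Ifi27 at 0.77, still higher in A cells.

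Irf1 (ENSMUSG00000018899), a transcription factor that interferon gamma induces, did not differ beyond counting error. It had 307 UMIs and 7.62 CPM (6.79 to 8.53) in A and 371 UMIs and 7.03 CPM (6.33 to 7.78) in B cells. The log2 ratio was 0.12 (-0.11 to 0.34). The shares of thinned cells were 2.21% and 2.10%.

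Isg15, Ifit1, Ifit3 and Irf7, called the core below, were rare. Irf7 (ENSMUSG00000025498) is the transcription factor that amplifies type I interferon production. It had 75 UMIs and 1.86 CPM (1.46 to 2.33) in A and 27 UMIs and 0.512 CPM (0.337 to 0.744) in B cells, a ratio of 3.64 (2.32 to 5.88). Isg15 (ENSMUSG00000035692), a ubiquitin-like protein that is attached to other proteins, had 100 UMIs in 76 A cells, or 2.48 CPM (2.02 to 3.02), and 3 UMIs in B cells, or 0.0568 CPM (0.0117 to 0.166). The ratio of 43.7 has a counting interval of 14.5 to 215.

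Ifit1 (ENSMUSG00000034459) and Ifit3 (ENSMUSG00000074896) encode partner proteins that recognise foreign RNA ends, and they were seen in A but not in B cells. Ifit1 had 20 UMIs and 0.497 CPM (0.303 to 0.767) in A cells, in 12 cells; Ifit3 had 18 UMIs and 0.447 CPM (0.265 to 0.706), in 13 cells. Against a floor of 3 counts over all B cells, Ifit1 was at least 8.74-fold and Ifit3 at least 7.86-fold higher in A cells. The exact intervals of these ratios begin lower, at 6.47 and 5.76. Under the purer rule for the groups the bounds fell further, from log2 values of 3.13 and 2.97 to 1.73 and 1.14. A single A cell held 8 of the Ifit1 and 6 of the Ifit3 UMIs. A count of 0 in 8936 B cells allows, by that floor, a share of cells with a UMI of up to 0.0336%, and the exact interval reaches 0.0413%. In order of level in A cells, neighbours were separated beyond counting error from Ifitm2 through Isg15, whereas Isg15 and Irf7 overlapped, as did Ifit1 and Ifit3. In B cells the order differed: Ifi27 and Irf1 stood above Ifitm3, and Irf7 above Isg15.

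At 3000 UMIs, 17.2% of A cells and 52.5% of B cells had no UMI of any member. In A cells 47.8% had 1 member, 27.2% had 2, 6.78% had 3, 71 cells had 4 and 5 cells had 5. In B cells 38.5% had 1, 8.26% had 2, 0.736% had 3, and 1 cell had 4.

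The members that rose and fell together from cell to cell were mostly the rare ones. Pearson r of log(1 + thinned UMIs) was taken for each of the 36 pairs of members as a description, since all cells share 1 library and 1 depth. In A cells r ran from -0.011 to 0.50 with a median of 0.017, and 7 pairs lay above 0.1. In B cells 21 pairs could be computed, all within 0.05 of 0, the highest being Ifitm2 with Ifitm3 at 0.038. The 7 pairs in A cells were all 6 pairs of the core and the Ifitm2-Ifitm3 pair.

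**Figure D3:**
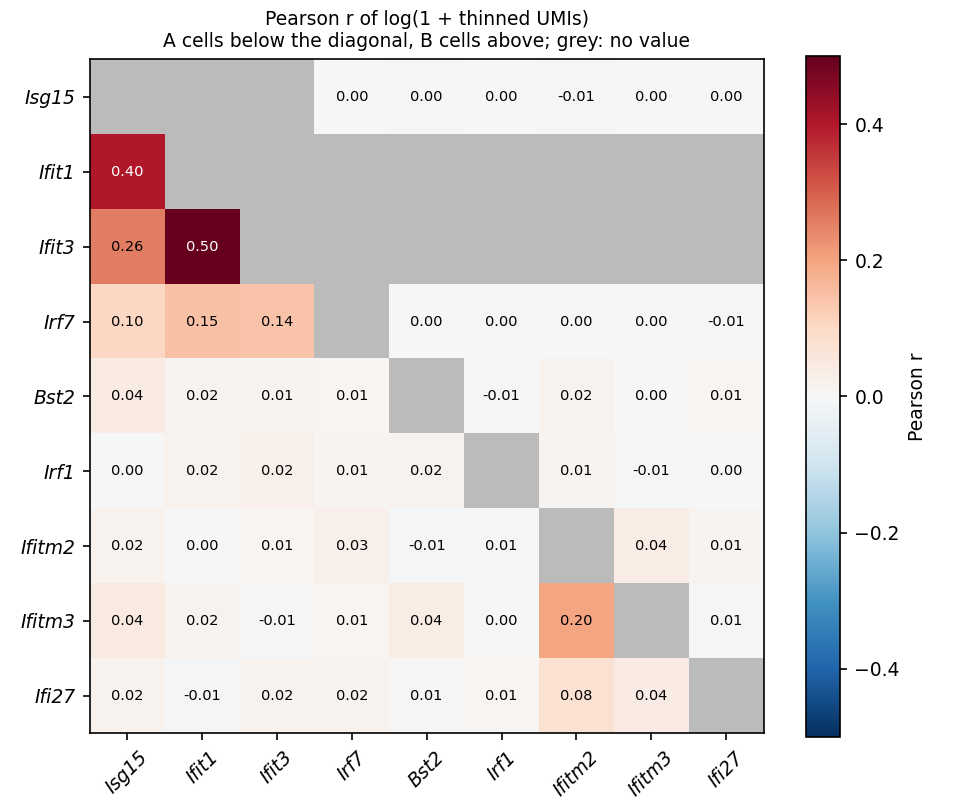
Pearson r of log(1 + UMIs) between members over 7406 thinned A cells (below the diagonal) and 8827 thinned B cells (above it), coloured from -0.5 to 0.5; grey marks the diagonal and pairs with a gene at 0 in B cells. The core genes at the upper left and the Ifitm2-Ifitm3 square (0.20 in A cells) stand out from squares near 0.

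Ifitm2 and Ifitm3 were the pair with the highest r by the lower of the values in A and B cells. In A cells r was 0.20: an Ifitm3 UMI was seen in 17.3% (16.3 to 18.3) of cells with an Ifitm2 UMI and in 9.03% (7.85 to 10.3) of cells without. In B cells 24 cells had both, and the shares were 0.850% (0.545 to 1.26) and 0.400% (0.256 to 0.594). Ifitm2 with Ifi27 followed at 0.075 in A and 0.015 in B cells. The next by the lower of the 2 values, Irf1 with Ifitm2, Bst2 with Ifi27 and Ifitm3 with Ifi27, were at or under 0.040 in each group, and such weak values in sparse counts are no finding. Irf1 with Ifitm3 was the lowest by that measure.

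Among the core, r in A cells was 0.50 for Ifit1 with Ifit3, 0.40 for Isg15 with Ifit1, 0.26 for Isg15 with Ifit3, 0.15 for Ifit1 with Irf7, 0.14 for Ifit3 with Irf7 and 0.10 for Isg15 with Irf7. Few cells carry these values: 46 thinned A cells had an Isg15 UMI, 8 had Ifit1, 6 had Ifit3 and 41 had Irf7, and 4 cells had both Isg15 and Ifit1. Without the A cell with the most core UMIs, 3 pairs stayed above 0.1, and r was 0.17 for Ifit1 with Ifit3, 0.22 for Isg15 with Ifit1 and 0.061 for Isg15 with Ifit3. Under the purer group rule r turned to -0.00049 for Ifit1 with Ifit3 and -0.0013 for Isg15 with Ifit3, and at 6000 UMIs to -0.0015 and -0.0046. The r of the abundant members with Isg15 was low, at 0.039 for Bst2, 0.018 for Ifitm2, 0.045 for Ifitm3 and 0.018 for Ifi27. An Ifitm3 UMI was nevertheless seen in 34.8% (21.4 to 50.2) of thinned A cells with an Isg15 UMI and in 14.7% (13.9 to 15.6) of those without.

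With full counts, 14 of 7816 A cells had UMIs of 2 or more core genes, a share of 0.179% (exact Clopper-Pearson, 0.0980 to 0.300), and 4 of them had 3 or 4. None of 8936 B cells did, which allows a share of up to 0.0336% by the floor of 3 counts and 0.0413% by the exact interval. The 14 cells held 15 of the 20 Ifit1 UMIs of all A cells, 11 of the 18 of Ifit3, 27 of the 100 of Isg15 and 10 of the 75 of Irf7. The cells were chosen by these UMIs, and 1 of them held 8 of the 15 Ifit1 and 6 of the 11 Ifit3 UMIs.

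The cell with the most core UMIs had 8 of Isg15, 8 of Ifit1, 6 of Ifit3 and 2 of Irf7 among 4992 UMIs, with 3 of Bst2, 1 of Ifitm3 and 0 of Ifitm2. A second cell, with 4036 UMIs, had 4 of Isg15, 1 of Ifit1, 1 of Irf7 and 4 of Ifitm2. The other 12 had 0 to 4 UMIs of Isg15 and at most 1 of Ifit1 and of Ifit3. Depth and mitochondrial share lay near those of all A cells, at a median of 4169.5 UMIs and 3.86%, and Scrublet marked 0 of them as doublets. Immune markers, Ptprc included, and the interferon genes themselves were at 0 UMIs in all 14.

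Other interferon-stimulated genes, which had no part in choosing the cells, were read in the thinned A cells. A list of 49 such genes gave 4000 CPM (3240 to 4885) in the 8 thinned cells with 2 or more core genes, 768 CPM (663 to 886) in the 82 cells with 1, and 500 CPM (491 to 510) in the 7316 cells with none. Cells with 2 or more thus stood 7.99-fold (6.47 to 9.77) above cells with none, and 7.04-fold without the cell with the most core UMIs. The size of this ratio moved with the setting: it was 12.7-fold under a stricter cell filter and 2.33-fold at 6000 UMIs, each from 2 such cells. With full counts the 14 cells stood at 2232 CPM against 497 CPM, a ratio of 4.49. Of 43 listed genes detected in the thinned cells, 22 were higher with intervals apart and 0 lower, against 1.46% of 18846 features higher by the same rule. With full counts 24 of 44 were higher, against 1.93% of all features. A UMI in the 8 cells stands for 41.7 CPM, so genes of low level pass this rule from a few UMIs.

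Some listed antiviral genes stood above their level in cells with no core gene. With full counts Rtp4, a chaperone-like interferon target, had 91.9 CPM (37.0 to 189) in the 14 cells and 0.761 CPM in cells with no core gene. Usp18, which removes ISG15 from proteins, had 65.7 CPM (21.3 to 153) against 0.254 CPM, with 4 of its 5 UMIs from 1 cell. Oasl2, of the oligoadenylate synthetase family, had 52.5 CPM (14.3 to 134) against 0.330 CPM, and Mx2, a dynamin-like antiviral protein, had 52.5 CPM against 0.254 CPM. Each rests on 4 to 7 UMIs in the 14 cells. Mx1, a relative of Mx2, had 13.1 CPM (0.332 to 73.2) against 0.304 CPM (0.157 to 0.532), and these intervals overlapped. Ifit2 had 0 UMIs in the 14 cells and 11.1 CPM in cells with no core gene, and Oas1a, Rsad2 and Dhx58 were also at 0 there. A 0 in the 14 cells allows up to 48.4 CPM by the exact interval, so whether these genes differed was not detectable at this depth. These genes were named after their values were seen. Of the 44 detected, 35 had a UMI in the 14 cells.

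The list of gamma-inducible genes stood higher in sum. This list of 23, which includes guanylate-binding proteins and the chemokine Cxcl10, gave 833 CPM (509 to 1287) in the 8 thinned cells, 260 CPM (200.4 to 332) with 1 core gene and 132 CPM (128 to 137) with none. Of its 19 genes detected in the thinned cells, 5 were higher with intervals apart and 0 lower, against the 1.46% above, and 8 had a UMI in the 8 cells. With full counts 7 of 20 were higher, against 1.93%. Cxcl10 supplied 7 of the 20 UMIs of the list in the 8 cells, and Psmb10, an immunoproteasome subunit, had 52.5 CPM (14.3 to 134) in the 14 full-count cells against 80.7 CPM with none. Cxcl10, which draws T cells, accounted for 17 UMIs in 4 of the 14 full-count cells, or 223 CPM, against 14 UMIs in 13 of the 7664 cells with none. In the 138 cells with 1 core gene it had 34 UMIs in 5 cells, 20 of them in a single cell, whereas no cell with none had more than 2.

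Of the other members, Bst2 and, from 6 UMIs, Ifitm3 stood higher in the cells with 2 or more core genes, while Ifitm2 and Irf1 depended on the depth used. Bst2 had 458 CPM (229 to 820) in the 8 thinned cells against 96.4 CPM (92.3 to 100.6) with none. Ifitm2 had 583 CPM (319 to 979) in the 8 thinned cells and 728 CPM (625 to 842) in the 82 with 1 core gene, against 504 CPM (494 to 513) with none. In the 14 full-count cells it had 749 CPM (567 to 969.8) against 492 CPM (485 to 499.0), with the intervals apart. Ifitm3 had 250 CPM (91.7 to 544) against 72.9 CPM (69.3 to 76.5). Ifi27 had 2 UMIs and Irf1 had 1 in the thinned cells. With full counts Irf1 had 4 UMIs in 4 of the 14 cells, or 52.5 CPM (14.3 to 134), against 7.56 CPM (6.72 to 8.46) with none, and Ifi27 had 65.7 CPM (21.3 to 153) against 47.0 CPM (44.9 to 49.2). The epithelial list was at 2833 CPM (2200 to 3592) against 2677 CPM thinned, but at 4911 CPM (4426 to 5435) against 2719 CPM with full counts, where 1 cell held 187 of its 374 UMIs. The late-mitosis list was at 1125 CPM (741 to 1637) against 1574 CPM thinned, with 19 of its 27 UMIs in 1 cell, and 1261 against 1662 CPM with full counts. The S-phase list was lower too, at 333 CPM (144 to 657) against 967 CPM thinned and 578 CPM (419.8 to 776) against 945 CPM with full counts. The early stress list was higher, at 667 CPM (381 to 1083) against 327 CPM thinned. The list of Tnc, Acta2 and Ptchd4 was at 667 CPM (381 to 1083) against 366 CPM thinned and 972 CPM (763 to 1220) against 369.5 CPM with full counts, but 1 cell held 10 of its 16 thinned UMIs and 32 of its 74 full-count UMIs, and the median cell had 1 in each group thinned. The S100g, Epcam and Tm4sf20 list was at 292 CPM (117 to 601) against 254 CPM thinned and 394 CPM (266 to 562) against 241 CPM with full counts; in thinned cells with 1 core gene it was at 541 CPM (453 to 641). The part of these lists in the result was not tested.

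**Figure D4:**
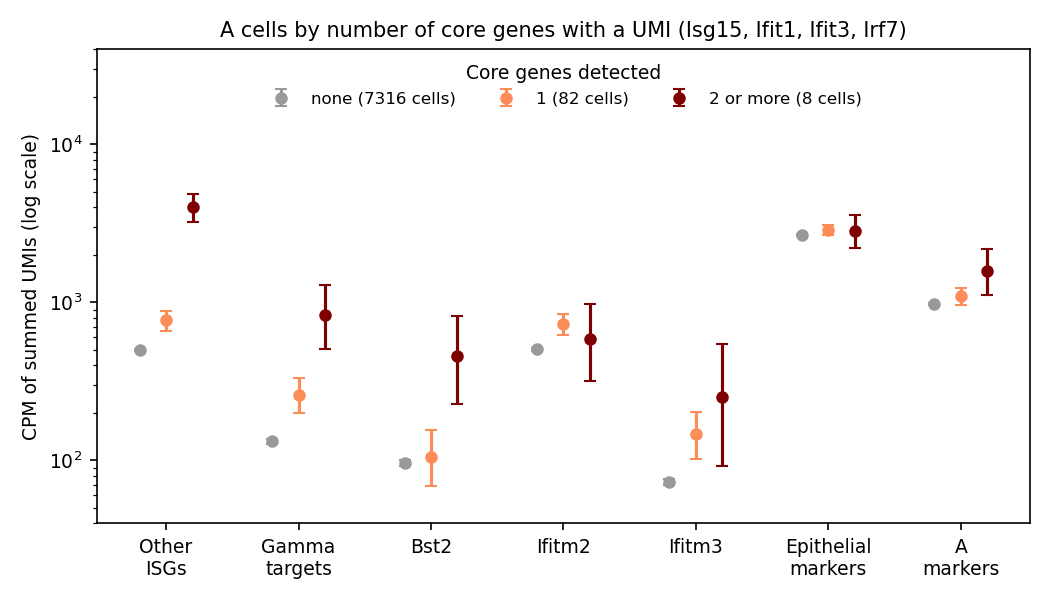
CPM of summed thinned UMIs (log axis, exact 95% Poisson intervals) in A cells with none, 1 or 2 or more of the core genes Isg15, Ifit1, Ifit3 and Irf7. The other interferon-stimulated genes rise from 500 to 768 to 4000 CPM, while Ifitm2 is at 504, 728 and 583 CPM and the epithelial markers at 2677, 2858 and 2833 CPM.

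The genes whose cell-to-cell pattern in A cells was most like the summed core were Cxcl10 at r = 0.29, Rtp4 at 0.26, Xaf1, an apoptosis-linked interferon target, at 0.19, Irgm2, an immunity-related GTPase, at 0.14, and Oasl2 at 0.14. Next came Ifih1, the sensor of long double-stranded RNA, at 0.13 and Parp14 at 0.12. Few thinned A cells carry these values: 14 had Cxcl10, 24 Rtp4, 41 Xaf1, 29 Irgm2, 11 Oasl2, 64 Ifih1 and 100 Parp14. With full counts the cell with the most core UMIs held 4 UMIs of Cxcl10. This ranking ran over 13308 features with a UMI in at least 10 of 7406 thinned A cells and was added after the data were seen. By the lower of the r in A and in B cells no gene passed 0.048, the value of Cp, and such values in sparse counts are no finding. For Ifitm2 the partners in both groups were Gm5886, a transcribed pseudogene (0.32 in A and 0.081 in B cells), S100a4, a calcium-binding protein (0.098 and 0.077), and Malat1, a nuclear long noncoding RNA (0.15 and 0.066). Ifitm3 had Gm5886 (0.21 and 0.089) and the fatty-acid-binding proteins Fabp4 (0.067 and 0.088) and Fabp5 (0.16 and 0.053). Ifi27 had Fabp4, Igfbp7 and Cd63, all under 0.1, and the partners of Bst2, Rpl23, Rpl18 and Wfdc2, were all under 0.05.

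Within A cells, members also differed between cell states, here defined by lists known from earlier results of these data. A cell was put in a state when, at 3000 UMIs, it had at least 2 UMIs of that state's list and at least 3 times as many as of the other list. The lists were S100g, Epcam and Tm4sf20 (813 cells) and Tnc, Acta2 and Ptchd4 (1574 cells). Ifitm2 had 871 CPM (842 to 900.2) in the S100g state and 427 CPM (413 to 441) in the Tnc state, a log2 ratio of 1.03 (0.96 to 1.09). Of the 5 members at 10 CPM or more, 1 (Ifitm2) passed 2-fold in this direction and 0 in the other; of all features 3.95% and 1.25% did. Ifi27 was also higher in the S100g state, at 71.7 against 47.3 CPM (log2 ratio 0.60, 0.37 to 0.82), and so was Irf1, at 11.6 against 7.44 CPM (0.65, 0.07 to 1.22). Ifitm3 was higher by less, at 91.4 against 75.3 CPM. Bst2 went the other way, with 85.8 CPM (76.9 to 95.5) against 108 CPM (101 to 116). Irf7 had 22 UMIs and 5.57 CPM (3.49 to 8.43) in the S100g state and 12 UMIs and 1.42 CPM (0.732 to 2.47) in the Tnc state, while Isg15 did not differ beyond counting error, at 3.80 and 4.13 CPM.

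In B cells, the same rule was used with the lists Krt14, Sprr1a, Krt5 and Krt6a (406 cells) and Areg, Btc, Cftr and Ereg (3481 cells). Ifitm2 had 172 CPM (156 to 188) in the Krt14 state and 125 CPM (120 to 130.1) in the Areg state, a log2 ratio of 0.46 (0.31 to 0.60). Ifi27 had 36.6 against 23.4 CPM, a log2 ratio of 0.65 (0.32 to 0.97), and Bst2 did not differ beyond counting error, at 57.0 and 51.5 CPM. Of the 3 members tested, 0 passed 2-fold in either direction, against 2.04% of features higher in the Krt14 state and 0.471% in the Areg state. Cell cycle made less difference to the abundant members: between the top 10% of A cells by late-mitosis genes and the rest, the log2 ratio was 0.09 (0.03 to 0.15) for Ifitm2 and 0.03 (-0.12 to 0.18) for Bst2. Ifit1 was higher in the mitotic A cells, with 9 UMIs against 10 in the rest of the cells of 3000 or more UMIs (log2 ratio 2.84, 1.37 to 4.30), and Ifit3 with 6 against 11 (2.12, 0.40 to 3.68). The cell with the most core UMIs is a mitotic one and holds 8 of those 9 and all 6. In S-phase A cells Isg15 was lower, with 4 UMIs against 94 and a log2 ratio of -1.68 (-3.59 to -0.28).

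**Figure D5:**
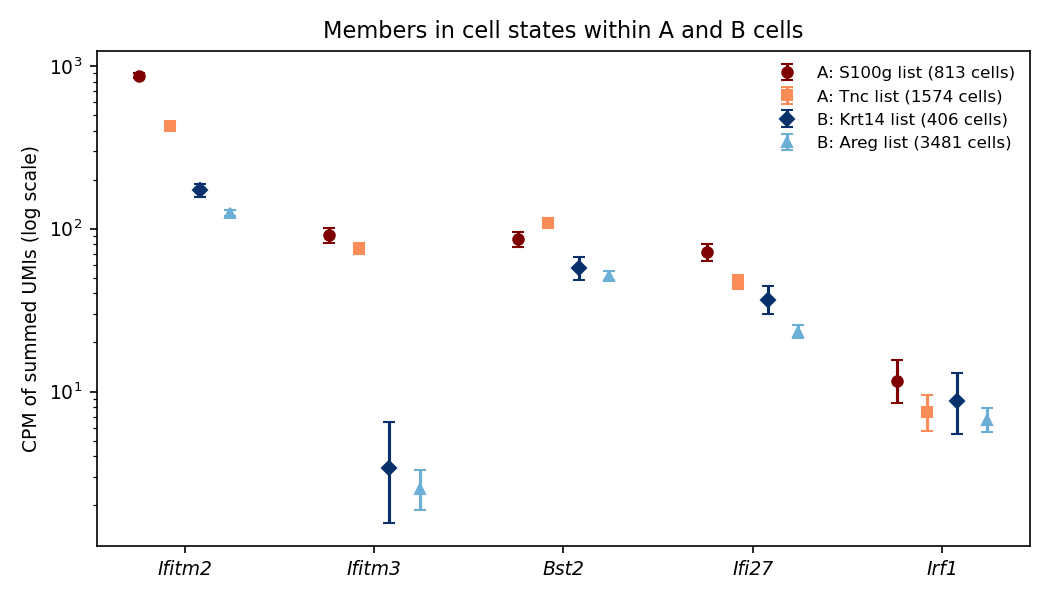
CPM (log axis, exact 95% Poisson intervals) of the 5 most abundant members in 2 states of A cells (S100g list, 813 cells; Tnc list, 1574 cells) and 2 states of B cells (Krt14 list, 406 cells; Areg list, 3481 cells). Ifitm2 is at 871 and 427 CPM in the A states and at 172 and 125 CPM in the B states, so every A state is above every B state for Ifitm2 and Ifitm3.

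Receptors and many targets were detected in both groups, and ligands hardly at all. Of 20 interferon genes 19 were at 0 UMIs, and Ifne, an epithelial type I interferon, had 11 UMIs in A cells and 1 in B cells. Receptor subunits, of which Ifnar1 and Ifnar2 were named after their values were seen, were detected in both groups: Ifnar1 had 37.4 CPM in A and 21.8 CPM in B cells, Ifnar2 83.9 and 48.0 CPM, Ifngr1 67.1 and 83.7 CPM, and Ifngr2 156 and 89.4 CPM. Jak1, the kinase shared by the receptors, had 87.0 and 78.4 CPM. Of 12 receptor and signalling genes at 10 CPM or more, 1 was past 2-fold higher in A cells, against 10.3% of all features: Il10rb (40.5 against 15.8 CPM), the shared chain of the lambda interferon receptor. Higher in B cells were 3, against 7.26% of all features: Jak2 (13.2 against 29.9 CPM), which serves the gamma receptor, and the feedback inhibitors Socs1 (6.83 against 25.1 CPM) and Socs3 (2.28 against 17.1 CPM).

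Targets outside the members leaned the same way as the members, with exceptions. The list of 49 other interferon-stimulated genes summed to 505 CPM (498 to 512) in A and 274 CPM (270 to 279) in B cells. Most of that difference came from Lgals3bp alone. Of its 13 genes at 10 CPM or more, 5 were past 2-fold higher in A and 2 in B cells, against 10.3% and 7.26% of all features, with a median log2 ratio of 0.98 against 0.17. Higher in A were Lgals3bp, a secreted glycoprotein (190 against 31.7 CPM), Ifi204, a DNA sensor of the p200 family (31.1 against 10.0 CPM), Samd9l (23.04 against 9.55 CPM), Phf11d (13.4 against 3.09 CPM) and Ifit2, the neighbour and relative of Ifit1 and Ifit3 (11.2 against 2.07 CPM). Higher in B were Isg20, an RNA exonuclease (19.0 against 56.7 CPM), and Oasl1 (8.74 against 24.9 CPM), which restrains Irf7 translation. Eif2ak2, the RNA-activated kinase PKR, had 60.5 and 30.6 CPM, and Trim25, a ubiquitin ligase named after its values were seen, 27.6 and 28.4 CPM.

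Of 4 gamma-inducible genes at 10 CPM or more, 0 were past 2-fold higher in A and 1, Socs1, in B cells, where all features had 10.3% and 7.26%. Psmb10 had 80.4 and 56.8 CPM, and Tapbp, which loads MHC class I, 23.3 and 14.0 CPM. Among 7 sensors and regulators at that level, 1 was past 2-fold higher in A cells, Tlr3, the endosomal receptor of double-stranded RNA (11.9 against 2.80 CPM), and 0 in B cells, again beside 10.3% and 7.26%. Single genes in lists this short are no result about the list. Irf2, a repressor related to Irf1, had 85.8 and 53.3 CPM, Tbk1, the kinase downstream of the sensors, 31.2 and 28.03 CPM, and Samhd1, a nucleotide hydrolase, 30.6 and 20.2 CPM. Early stress genes, which can follow cell handling, ran the other way to the members in sum, at 330 CPM in A and 681 CPM in B cells. Of 9 at 10 CPM or more, 3 had a higher level in A cells. Past 2-fold, 1 was higher in A and 3 in B cells, beside the same 10.3% and 7.26%.

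Relatives of the Ifitm and Ifi27 genes did not all follow them; those given here were named after their values were seen. Ifitm10 had 0.968 CPM in A and 6.20 CPM (5.54 to 6.91) in B cells, a log2 ratio of -2.68, and Ifi27l2b, next to Ifi27 in gene order, had 14.4 and 16.3 CPM. Ifitm1 had 6 UMIs in A and 0 in B cells. Chromosome position was compared through GENCODE M21 gene order. Other genes of chromosome 7, where Ifitm2, Ifitm3 and Irf7 lie, had a median log2 ratio of 0.61, above the 0.17 of all features. The genes on either side of the Ifitm pair had lower ratios than its 1.86 and 4.73: Psmd13 had 0.22, Ptdss2 0.72, Sirt3 0.83 and Rnh1 -0.04. Irf7 had a log2 ratio of 1.86. Beside it, Hras had -0.24, Phrf1 0.46, Cdhr5 0.48, Deaf1 0.60, Rassf7 1.06 and Tmem80 1.14. The other genes of chromosome 19, which carries Ifit1 and Ifit3, had a median of -0.51, and those members were higher in A cells. Their neighbours were mixed: Acta2 had 4.61, Lipa 1.02 and Ifit2 2.44 before them, and Kif20b -0.29, Rpp30 -0.64 and Ankrd1 -1.58 after. Copy number was not measured, and its part in these ratios was not tested.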

How the data were processed

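Per the file headers, the authors deposited whole UMI counts per gene and barcode as a sparse matrix. Per the submitters' processing notes, Cell Ranger 8.0.1 and the build GRCm39 were used; no other step is given in the sources used here. The matrix held 22178 barcodes, of which 21361 passed the cell filter.

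The members and all gene lists were chosen with earlier results of these data known, and some genes stand in more than 1 list. UMIs were summed per group and divided by the group total (CPM, exact Poisson intervals), ratios carry exact intervals conditional on the total, and shares exact Clopper-Pearson intervals, all at 95%. For shares and correlations each cell was thinned once, without replacement, to 3000 UMIs; 410 A and 109 B cells were shallower and left out. A listed gene counts as called when it is at least 2-fold apart and at 10 CPM or more in either group. Genes were named by rule: all members, the 3 with the most UMIs and those called of each list, the 5 pairs highest in the lower r of A and B cells and the lowest pair, and the nearest genes by that measure; other names are said to have been chosen after seeing values. Doublets were kept; Scrublet, in scanpy 1.11.5, marked 150 A and 214 B cells, which were removed as an alternative. Promoters came from RefSeq (GRCm38.p6); since the matrix uses another build, these coordinates are the RefSeq table's own. GENCODE M21 gave chromosome and gene order by symbol for 31961 of 33696 features. Scripts ran in Python 3.11.15 with scipy 1.17.1, and were tested on simulated counts. Alternatives were a stricter and a looser cell filter, a purer group rule, other scalings and depths, and removal of the cell with the most core UMIs, the last chosen after seeing the data.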

Additional observations from a re-analysis of the deposited data

Results flagged for a closer look

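The comparisons used A and B cells, yet the members were also seen in barcodes outside both groups, above what a count of 0 allows. In the 4609 kept cells of neither group, Ifitm2 had 321 CPM, Bst2 80.1 CPM, Ifi27 39.7 CPM, Ifitm3 39.6 CPM, Irf1 7.46 CPM, Isg15 1.69 CPM and Irf7 1.24 CPM. All of these lie between the A and the B value of the gene. Ifit3 had 2 UMIs there, Ifit1 had 0, and 2 cells had 2 core genes. Scrublet marked 9.09% of these cells as doublets, against 1.92% of A and 2.39% of B cells, and its part in the intermediate values was not tested.

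In the 817 barcodes removed by the cell filter, Ifitm2 had 207 CPM, Bst2 51.1 CPM, Ifitm3 34.0 CPM, Ifi27 29.8 CPM and Irf1 7.45 CPM. Their median depth was 1087 UMIs with 11.1% mitochondrial.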

How the results depend on the processing

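The log2 ratio of A over B changed sign under the 8 alternatives run for Irf1 alone of the members, to -0.022 under the strict cell filter. Its size moved past counting error for abundant members. Ifitm2, at 1.86, ran from 1.75 to 1.97 and left its counting interval in 6 of the 8. Ifitm3, at 4.73, ran from 4.51 to 5.41 and left it in 4, and Bst2 and Ifi27 did so in 1 each. Several results that rest on few cells moved further. The level of other interferon-stimulated genes in A cells with 2 or more core genes, 7.99-fold above cells with none, was 12.7-fold under the strict cell filter (2 such cells), 6.37-fold under the purer group rule (4 cells), 4.49-fold unthinned (14 cells) and 2.33-fold at 6000 UMIs (2 cells). Pairs of members with r above 0.1 in A cells fell from 7 to 2 under the purer rule, 2 at 6000 UMIs and 3 without the cell with the most core UMIs. Under the purer rule r turned to -0.0013 for Isg15 with Ifit3 and -0.00049 for Ifit1 with Ifit3, and at 6000 UMIs to -0.0046 and -0.0015; these settings keep fewer cells. The log2 bounds of Ifit1 and Ifit3, 3.13 and 2.97, fell to 1.73 and 1.14 under the purer rule. The cell with the most core UMIs, of 4992 UMIs, meets neither the purer rule nor the depth of 6000 UMIs, so both settings leave it out. The log2 ratio of Ifitm2 between the A states, 1.03, was 0.96 under the strict filter, just short of 2-fold. No paired analysis was possible because there is 1 library.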
